A study of Takifugu fasciatus with 6 samples.

Results

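The genes described here regulate the unfolded protein response of the endoplasmic reticulum (ER). They were chosen by name: HSPA5, ERN1, XBP1, ATF6, EIF2AK3, ATF4, DDIT3 and PPP1R15B. A gene model was kept when the Swiss-Prot gene name of its best protein match equalled 1 of these 8 names, ignoring case and a final a or b. This gave 14 of the 20990 gene models in the table, with at least 1 for each of the 8 names. Of the 14, 13 had enough counts to be tested, among 14357 tested models in all. No measured value entered the choice, but the names were proposed with earlier results of these data known.

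The livers came from juvenile obscure pufferfish, *Takifugu fasciatus*, acclimated for 2 weeks at 26 °C. Fish of the experimental group (EG; libraries Ga, Gb and Gc) were cooled at 0.85 °C per hour to 19 °C, kept there for 12 h, cooled at the same rate to 12 °C and held at 12 °C for 24 h. Fish of the control group (CG; libraries G1, G2 and G3) stayed at 26 °C until sampling. Each library was made from liver tissue pooled over several fish, so the error terms below describe the spread among 3 pools per group and not among single fish.

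Secreted and membrane proteins fold inside the ER, and the unfolded protein response adjusts folding capacity to load. In mammals, 3 sensors in the ER membrane start it: IRE1 (gene ERN1), which removes a short intron from the XBP1 transcript; ATF6, which is cut in the Golgi to release a transcription factor; and PERK (gene EIF2AK3), a kinase that phosphorylates the translation initiation factor eIF2 alpha. Hepatocytes export large amounts of plasma protein and depend on this system. Removal of the XBP1 intron, cleavage of ATF6 and phosphorylation of eIF2 alpha leave no trace in counts per gene, so the values below describe transcript abundance alone.

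Library totals lay between 31150888 and 45548824 counts. Levels are library-scaled counts (CPM), with the libraries put on a common scale by TMM factors, which were 0.824 to 0.973 in EG and 1.10 to 1.15 in CG. Transcripts of hepatocytes dominated every library: tf (transferrin) had 140687 to 164694 CPM in EG and 121050 to 160316 CPM in CG. The sum over the 25 hepatocyte marker models was 268220 to 327089 CPM in EG and 221628 to 248457 CPM in CG, with 11 of 24 tested models higher in EG and 2 lower. The TMM factors are lower in EG, which raises its sums relative to those of CG. As plain shares of the library totals, the hepatocyte sums of the 2 groups overlap. The erythrocyte markers (15 models) summed to 4486 to 7850 CPM in EG and 6754 to 16951 CPM in CG, with 2 of 14 tested models higher and 7 lower. No hepatocyte or erythrocyte marker model was at 0 in every library. Transcripts of the exocrine pancreas, which lies within the liver in many teleosts, were unequal within both groups. Their sum over 22 gene models was 18320, 669 and 23677 CPM in Ga, Gb and Gc, against 19673, 27081 and 6276 CPM in G1, G2 and G3, so Gb nearly lacked them; 0 of 16 tested models were higher in EG and 1 was lower. Among these 22 models only Cuzd1 was at 0 in every library. The B and plasma cell list had 11 models, none at 0 in every library. Its marker sums were 3.40 to 8.45 CPM in EG and 9.58 to 44.8 CPM in CG, with 5 of 8 tested models lower in EG and 0 higher. The other leukocyte list had 20 models, none at 0 throughout. Its sums were 49.5 to 92.4 CPM in EG and 96.5 to 163.6 CPM in CG. There 4 of 17 tested models (23.5%) were lower and 0 were higher. Beside these marker counts, 23.7% of all tested models were higher in EG and 21.7% were lower. The share of the leukocyte list that was lower was thus near that of all models, while the share that was higher was below it. The part of these marker differences in the results below was not tested. In bulk tissue, fewer cells of a type and less RNA per cell cannot be told apart.

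Of the 13 tested regulator models, 6 were higher in EG and 1 was lower in EG by edgeR's quasi-likelihood test (Benjamini-Hochberg adjusted p under 0.05 over all tested models). For comparison, 23.7% of all tested models were higher in EG and 21.7% were lower, or 45.4% in either direction. The 6 higher models carried the names Xbp1, Atf4, DDIT3, Ern1 and, for 2 of them, PPP1R15B. The lower one was EIF2AK3. HSPA5, both ATF6 models, the second ATF4 model and the other 2 ERN1 models did not pass. In 8 of the 13 models the 3 EG libraries and the 3 CG libraries did not overlap, beside 57.8% of all tested models. A differentially expressed gene (DEG), taken as adjusted p under 0.05 with an absolute log2 fold change over 1, was found for 2 models, Xbp1 and 1 PPP1R15B, both higher in EG, against a background of 13.7% higher.

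The scale matters for the smaller changes. With TMM all tested models had a median log2 fold change of -0.03, and 52.2% of the models called were higher in EG. With library totals in place of TMM the median moved to -0.37 and that share to 31%; with upper quartile factors they were -0.22 and 40.0%, and with limma on log2(FPKM + 1) they were -0.24 and 29.2%. Under each of these scalings 3 regulator models were still higher in EG: Xbp1, the Atf4 model on scaffold 178 and the shorter PPP1R15B model. EIF2AK3 was lower in EG under all of them, with a log2 fold change of -0.61 with TMM and -0.96 with library totals. These scalings lower the values of most models, so they could not have removed a lower call.

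**Figure D1:**
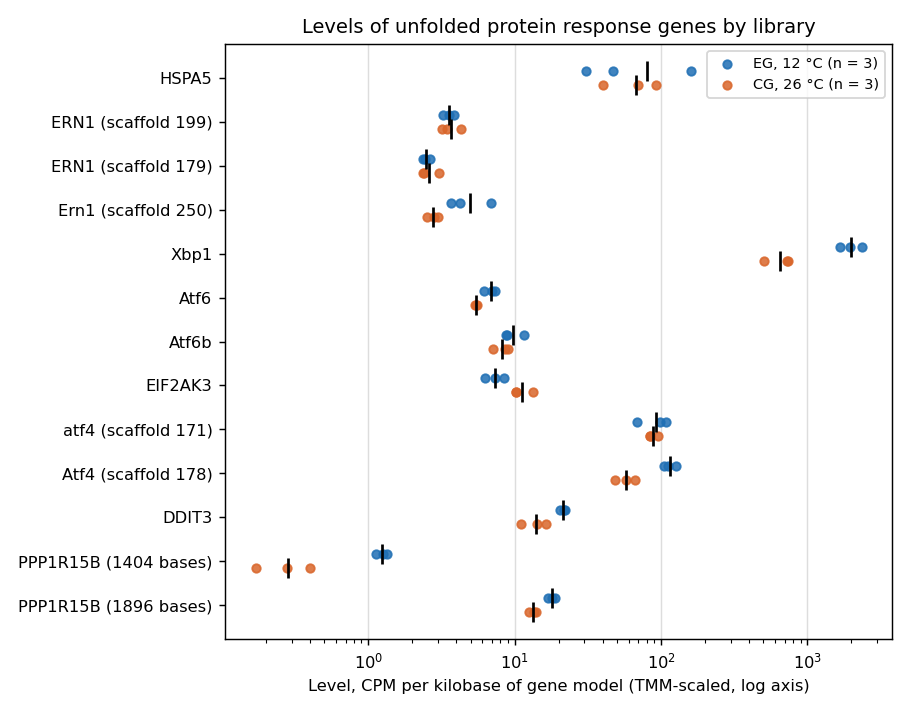
Levels of the 13 tested models in CPM per kilobase of gene model (horizontal log axis), EG points above CG points in each row, 1 point per library and a black tick at the mean of 3 libraries. Xbp1 is far to the right of every other model in both groups, and its EG points, like those of Atf4 (scaffold 178) and the PPP1R15B model of 1404 bases, do not overlap its CG points. The HSPA5 model is a fragment of 189 bases, so its place may not stand for the whole transcript.

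Per kilobase of gene model, the order of levels was led by Xbp1, with 1991 ± 351 CPM per kb in EG and 655 ± 132 CPM per kb in CG (mean ± SD, n = 3 each). In EG the next were the 2 ATF4 models (114 and 91.8 CPM per kb) and HSPA5 (79.7 CPM per kb), whose libraries overlapped from one to the next. The HSPA5 model is a fragment of 189 bases, so its place in the order may not stand for the whole transcript. DDIT3 (21.4), the longer PPP1R15B model (17.9) and Atf6b (9.72 CPM per kb) followed, each apart from its neighbours in the order. EIF2AK3 (7.38), Atf6 (6.86), Ern1 on scaffold 250 (4.96) and ERN1 on scaffold 199 (3.55 CPM per kb) overlapped in sequence. ERN1 on scaffold 179 (2.48) and the shorter PPP1R15B model (1.25 CPM per kb) came last. In CG the 2 ATF4 models and HSPA5 also followed Xbp1, with atf4 on scaffold 171 the first of them. There EIF2AK3 (11.3 CPM per kb) stood just above Atf6b (8.23 CPM per kb) without overlap, whereas in EG it stood below it. The transcripts of the sensors were thus far less abundant than that of XBP1, the transcription factor under IRE1.

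Xbp1 (fugu_GLEAN_10003203; scaffold 139, bases 444798 to 446733) lies beside znrf3, a neighbour that XBP1 also has in the human genome. It encodes the transcription factor that, after IRE1 has processed its mRNA, drives genes of ER folding, transport and degradation. It measured 2503, 1766 and 2055 CPM in Ga, Gb and Gc, against 763, 784 and 533 CPM in G1, G2 and G3. The lowest EG library was thus above the highest CG library. Its log2 fold change was 1.60 ± 0.21 (SE; edgeR, adjusted p = 0.000782), a 3.04-fold higher level in EG. It passed the test under all 15 alternative settings, with log2 fold changes of 1.45 to 1.72 when each library was left out in turn and 1.26 with library totals. XBP1 is also abundant in pancreatic acinar and plasma cells. Gb, with the fewest pancreatic transcripts of all 6 libraries, had the lowest Xbp1 level within EG, where Xbp1 was highest in Ga and the pancreas sum in Gc. Within CG both had the order G2, G1, G3 from high to low. The pancreas sums overlapped between the groups. The B and plasma cell sum was lower in all EG libraries than in any CG library. The part of tissue makeup in the Xbp1 difference was not tested.

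Of the 3 models named for IRE1, the kinase and endoribonuclease that processes XBP1 mRNA, 1 was higher in EG and 2 did not pass the test. The best match, which did not pass, is ERN1 on scaffold 199 (fugu_GLEAN_10003261; bases 693690 to 710396), a model of 4086 bases beside Tex2, as in the human genome. It measured 15.7, 13.2 and 14.5 CPM in Ga, Gb and Gc, against 17.6, 14.1 and 13.1 CPM in G1, G2 and G3. The groups overlapped fully, and the log2 fold change was -0.04 ± 0.16 (SE; edgeR, adjusted p = 0.855). A second ERN1 model, on scaffold 179, had 5.76, 5.91 and 6.41 CPM in EG and 7.38, 5.81 and 5.77 CPM in CG, also overlapping (log2 fold change -0.07 ± 0.19, edgeR, adjusted p = 0.791). With library totals the log2 fold changes of both were -0.39 and -0.41, near the shift of -0.37 of all models, and leaving out G1 turned both to positive values of 0.09 and 0.06.

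The third model named Ern1, on scaffold 250 (fugu_GLEAN_10013044), had 9.47, 15.5 and 8.19 CPM in Ga, Gb and Gc, against 6.71, 6.23 and 5.60 CPM in G1, G2 and G3. All EG libraries were above all CG libraries, with Gb far above the other EG pools. The log2 fold change was 0.84 ± 0.26 (SE; edgeR, adjusted p = 0.0300). The call was lost with library totals (adjusted p = 0.180), with upper quartile factors (0.0691) and with each of Gb, G1, G2 and G3 left out (adjusted p = 0.0607, 0.0703, 0.0795 and 0.0938, edgeR). Its protein match (E = 1.36e-18) and that of the scaffold 179 model (E = 5.43e-30) are far weaker than that of the scaffold 199 model, listed at E = 0. Whether these 2 models encode IRE1 was not tested. Apart from Atf6, Atf6b and EIF2AK3, the regulator models of other names matched at weaker E-values still. These were 5.59e-17 (atf4 on scaffold 171) to 7.12e-07 (DDIT3), with Xbp1 at 1.31e-07. Their identity was not tested either.

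Atf6 (fugu_GLEAN_10010115; scaffold 291, bases 205784 to 226130) encodes the sensor that becomes a transcription factor when proteases of the Golgi cut it. It measured 12.2, 11.8 and 10.4 CPM in Ga, Gb and Gc, against 9.26, 9.04 and 9.10 CPM in G1, G2 and G3. Every EG library was above every CG library by a narrow margin, and the test was not passed (log2 fold change 0.33 ± 0.15, SE; edgeR, adjusted p = 0.109). With library totals its log2 fold change was -0.01, that is 0.36 above the median of all models. Atf6b, which encodes the related ATF6 beta and entered through the dropped final letter, had 17.1, 22.5 and 17.2 CPM in EG and 16.8, 17.6 and 13.8 CPM in CG. Its groups overlapped (log2 fold change 0.24 ± 0.17, edgeR, adjusted p = 0.291), and with library totals its value was -0.09. The proteases that cut ATF6 in mammals, MBTPS1 and MBTPS2, did not pass either (log2 fold changes 0.26 and -0.06, edgeR, adjusted p = 0.143 and 0.863).

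EIF2AK3 (fugu_GLEAN_10006608; scaffold 186, bases 647735 to 665743), encoding PERK, was the only regulator that was lower in EG. It lies beside RPIA, its neighbour in the human genome as well. It measured 24.9, 21.2 and 28.7 CPM in Ga, Gb and Gc, against 45.3, 34.5 and 34.7 CPM in G1, G2 and G3, with no overlap. EG lay below CG, with a log2 fold change of -0.61 ± 0.18 (SE; edgeR, adjusted p = 0.0223), or 0.654 times the CG level. It was negative under all 15 alternatives and passed the test in the 9 that kept all libraries, but not when Ga, Gb or G1 was left out (edgeR, adjusted p = 0.0509, 0.0623 and 0.0895). Among those 9, library totals, upper quartile factors and the fits on FPKM lower most values and could not have removed a lower call. A gene model on the opposite strand spans this locus, and it held 0.240 to 0.790 CPM in EG and 1.02 to 1.54 CPM in CG.

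The other kinases of eIF2 alpha were measured in the same fit. EIF2AK4 (GCN2), which senses uncharged tRNA, was lower in EG, with 9.52, 15.9 and 13.2 CPM in Ga, Gb and Gc, against 27.0, 35.1 and 30.6 CPM in G1, G2 and G3. Its log2 fold change was -1.26 ± 0.21 (SE; edgeR, adjusted p = 0.00214). EIF2AK1 (HRI), a kinase that responds to heme shortage and mitochondrial stress, had 5.29 to 7.11 CPM in EG and 4.34 to 7.03 CPM in CG and did not pass (log2 fold change 0.16, edgeR, adjusted p = 0.626). Of the 3 eIF2 alpha kinases with a matched model, 2 were lower in EG, beside 21.7% of all tested models. The EIF2AK3 call was lost without Ga, Gb or G1, where its log2 fold change was -0.61, -0.50 and -0.47. Leaving out a library also lowers the power of the test.

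ATF4, the transcription factor whose translation increases when eIF2 alpha is phosphorylated, had 2 models, and they differed. Zebrafish also carries a pair of atf4 genes. Atf4 on scaffold 178 (fugu_GLEAN_10009675; bases 1660768 to 1662167) measured 164, 146 and 138 CPM in Ga, Gb and Gc, against 75.2, 87.1 and 63.2 CPM in G1, G2 and G3. All EG libraries were well above all CG libraries. Its log2 fold change was 0.99 ± 0.17 (SE; edgeR, adjusted p = 0.00218), just short of the DEG threshold, and it passed the test under all 15 alternatives.

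The atf4 model on scaffold 171 (fugu_GLEAN_10005034; bases 169581 to 171750) lies beside RPS19BP1, as ATF4 does in the human genome. It measured 146, 131 and 90.9 CPM in Ga, Gb and Gc, against 112, 128 and 112 CPM in G1, G2 and G3. The groups overlapped, with the EG libraries on both sides of the CG libraries (log2 fold change 0.06 ± 0.19, edgeR, adjusted p = 0.809). Its sign turned with library totals (-0.27), upper quartile factors (-0.13) and without Ga (-0.07). Within a library the scaling cancels: the log2 ratio of the counts of the scaffold 178 model to those of the scaffold 171 model was 0.18, 0.15 and 0.60 in Ga, Gb and Gc, against -0.57, -0.55 and -0.82 in G1, G2 and G3. The scaffold 178 model thus had the more counts in every EG library and the fewer in every CG library.

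DDIT3 (fugu_GLEAN_10016399; scaffold 54, bases 3981680 to 3982701) encodes CHOP, a transcription factor induced downstream of ATF4 and known for its part in cell death under lasting ER stress. It lies between dctn2 and mars, and of these mars is its neighbour in the human genome too. It measured 20.1, 20.5 and 19.0 CPM in Ga, Gb and Gc, against 15.2, 13.3 and 10.3 CPM in G1, G2 and G3. The EG libraries lay within a narrow range above all CG libraries, among which G3 was the lowest. The log2 fold change was 0.62 ± 0.17 (SE; edgeR, adjusted p = 0.0195), and the call was lost with library totals (adjusted p = 0.251), with upper quartile factors (0.0665) and without G2 (0.0570) or G3 (0.0640).

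PPP1R15B encodes the regulatory subunit that brings protein phosphatase 1 to eIF2 alpha and so reverses the action of the eIF2 alpha kinases. Its longer model (fugu_GLEAN_10007512; scaffold 154, bases 398585 to 400694) lies beside PIK3C2B, as in the human genome. It had 35.6, 32.0 and 34.3 CPM in Ga, Gb and Gc, against 23.6, 26.4 and 25.7 CPM in G1, G2 and G3. Both groups were tight and did not overlap, and the log2 fold change was 0.43 ± 0.13 (SE; edgeR, adjusted p = 0.0266). With library totals it was 0.09 (adjusted p = 0.639), and the call was also lost without Ga, G1, G2 or G3 (edgeR, adjusted p = 0.0510, 0.106, 0.0672 and 0.0705).

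A shorter model of 1404 bases (fugu_GLEAN_10000062), on a short scaffold of its own, also carries the name PPP1R15B. It has a KEGG entry for PPP1R15B too, with an attached RefSeq title that reads like PPP1R15A, the stress-inducible relative. Its counts were 67, 50 and 65 in Ga, Gb and Gc, against 10, 24 and 14 in G1, G2 and G3. The level was low in both groups, but each EG library was at least 50 counts and each CG library at most 24. The log2 fold change was 2.14 ± 0.44 (SE; edgeR, adjusted p = 0.00556) and passed the test under all 15 alternatives, at 0.69 with limma on log2(FPKM + 1), a scale that understates changes of low genes and on which it is no DEG, and at 1.58 to 2.48 in the other 14. A further model (fugu_GLEAN_10017691; scaffold 26, bases 4643228 to 4645765) has the same length, span and match score and, like the shorter model, lies beside an rps13 model. It held 1, 2 and 3 counts in Ga, Gb and Gc, against 0 in each CG library, at or under a floor of 3 counts per library, so no fold is given. Whether these are near-identical copies or 1 locus assembled in duplicate, with reads split between them, was not tested. Summed, the pair had 68, 52 and 68 counts in EG and 10, 24 and 14 counts in CG.

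**Figure D2:**
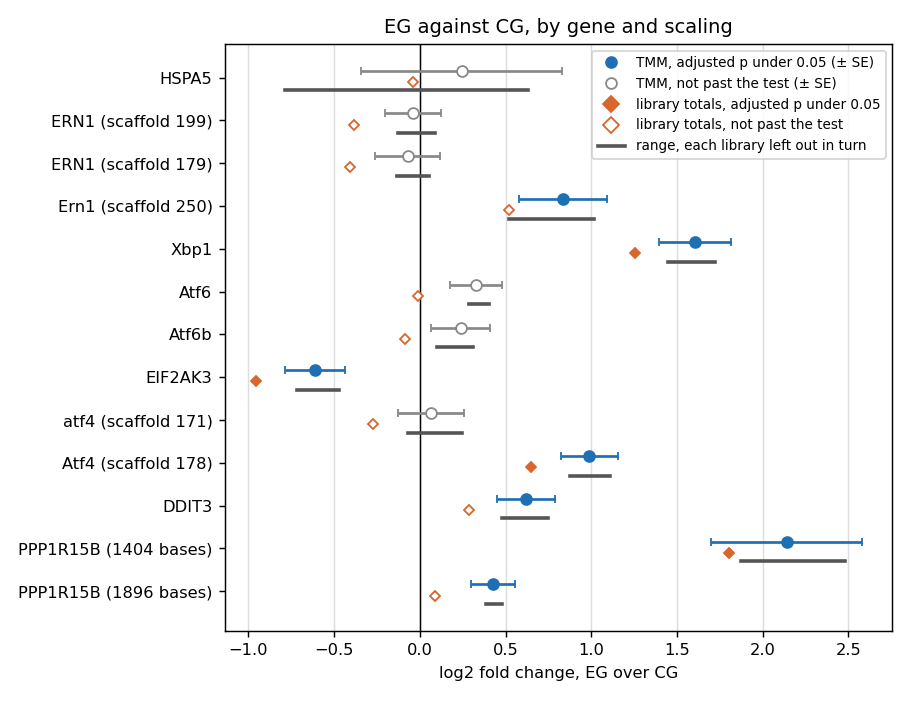
Log2 fold change of EG over CG (horizontal axis) for the 13 tested models: circles with SE bars give the TMM fit, diamonds the fit on library totals, filled where edgeR's adjusted p is under 0.05, and grey bars the range when each library is left out in turn. Xbp1, Atf4 (scaffold 178), the PPP1R15B model of 1404 bases and EIF2AK3 pass under both scalings, and the bar of HSPA5 spans -0.78 to 0.63. Library totals lower the values of most models, so that scaling could not have removed the lower call of EIF2AK3.

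HSPA5 encodes BiP (GRP78), the Hsp70 chaperone of the ER lumen that binds unfolded chains and holds the sensors inactive. The model of this name (fugu_GLEAN_10018375; scaffold 31, bases 5197852 to 5200716) is only 189 bases long, and 0.19% of all models are as short or shorter. It lies beside rabepk, as HSPA5 does in the human genome. Its values therefore describe a fragment and may not stand for the whole transcript. It measured 8.83, 30.5 and 5.85 CPM in Ga, Gb and Gc, against 17.5, 7.58 and 13.1 CPM in G1, G2 and G3. The EG libraries included both the highest and the lowest of all 6, a 5.22-fold span within EG and a 2.30-fold span within CG. The log2 fold change was 0.24 ± 0.58 (SE; edgeR, adjusted p = 0.761). It was -0.04 with library totals, -0.02 without G2 and -0.78 without Gb (edgeR, adjusted p = 0.125), so it had no stable direction.

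Of the other ER chaperones and folding enzymes, 9 of 42 tested models (21.4%) were higher in EG and 4 (9.52%) were lower, beside 23.7% and 21.7% of all tested models. Their median log2 fold change was 0.11, against -0.03 for all. Members that were higher included Sdf2, with 17.8, 17.1 and 13.4 CPM in EG and 5.85, 6.14 and 5.49 CPM in CG (log2 fold change 1.46). Others were Txndc5, a thioredoxin-domain protein of the ER (1.28), and Dnajb9, the BiP cochaperone ERdj4. Dnajb9 had 29.7, 22.3 and 12.9 CPM in Ga, Gb and Gc, against 11.4, 10.6 and 9.13 CPM in G1, G2 and G3 (log2 fold change 1.06, edgeR, adjusted p = 0.0170). Mogs, the glucosidase that starts trimming of N-glycans, was lower in EG (-0.91). SDF2L1 (Sdf2-like 1), below 10 CPM and named here beside Sdf2, was lower too (-1.13, edgeR, adjusted p = 0.0320). It measured 1.47, 3.46 and 1.61 CPM in Ga, Gb and Gc, against 5.11, 4.46 and 4.71 CPM in G1, G2 and G3. CANX (calnexin) was higher, with 113, 120 and 93.4 CPM in EG and 75.7, 71.6 and 71.3 CPM in CG (0.58, edgeR, adjusted p = 0.0135). Hsp90b1 (GRP94) and hyou1 (GRP170) did not pass. The more abundant Hsp90b1 model averaged 215 ± 45.6 CPM in EG and 201 ± 74.0 CPM in CG (SD, n = 3 each). The scarcer Hsp90b1 model had a log2 fold change of 1.44 (edgeR, adjusted p = 0.0720). Levels of hyou1 were 14.4, 37.7 and 11.8 CPM in EG and 21.1, 12.8 and 15.3 CPM in CG. The number higher was 5 without G2, and the number lower was 8 without Gb and 2 without Ga, G1 or G3. With library totals 2 were higher and 9 lower, at a median of -0.24 against -0.37 for all.

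Gb and Gc stood apart for these genes, Gb as the highest and Gc as the lowest EG library in most, as they did for HSPA5. This comparison was chosen after the values had been seen and is given as a description. Among the 29 ER chaperone and folding models with a mean of at least 10 CPM, Gb was the highest EG library in 18 (62.1%), while over all 6149 tested models at that level it was the highest in 32.9%. The share was 75.0% (15 of 20) for ER-associated degradation, 66.7% (14 of 21) for the eIF2 alpha list, 58.6% (17 of 29) for protein entry into the ER, 43.8% (7 of 16) for the sensor partners and 32.4% (11 of 34) for the ATF4 and CHOP target genes, so a high share was not particular to the folding genes. Gc was the lowest EG library in 19 of the 29 folding models (65.5%). Over all tested models of at least 10 CPM it was the lowest in 36.4%. Its share was 75.9% for protein entry into the ER, 60.0% for ER-associated degradation and 57.1% for the eIF2 alpha list. For the sensor partners it was 37.5% and for the ATF4 and CHOP target genes 26.5%. Pdia6, a disulfide isomerase, had 35.8, 86.7 and 29.5 CPM in Ga, Gb and Gc, against 74.6, 52.7 and 64.0 CPM in G1, G2 and G3. One P4HB model went the other way, with 49.3, 2.38 and 79.6 CPM in EG and 59.0, 76.9 and 15.7 CPM in CG, the same order of libraries as the pancreas sum within each group. The part of tissue makeup in these differences among pools was not tested.

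**Figure D3:**
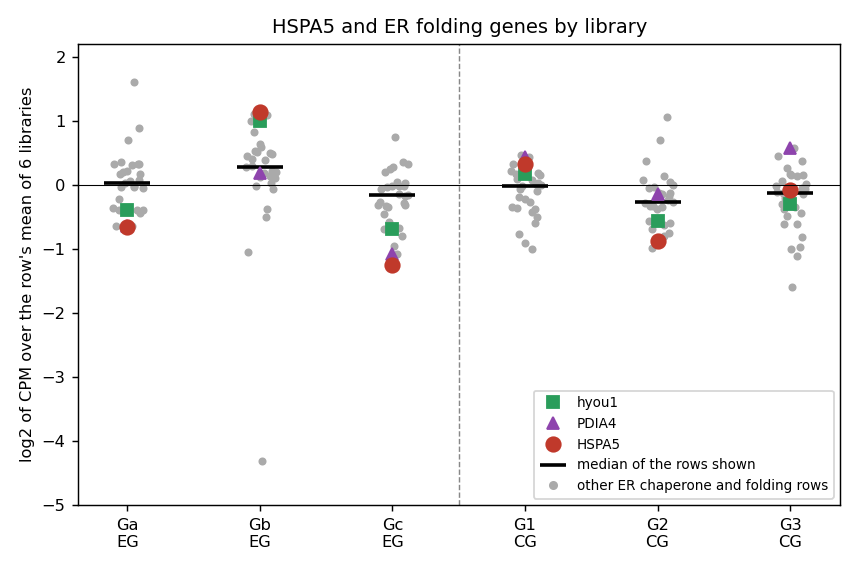
Log2 of CPM over each model's mean of the 6 libraries (vertical axis) for HSPA5 and the 29 ER chaperone and folding models of at least 10 CPM, by library, EG left and CG right of the dashed line; black dashes mark medians of the 29. HSPA5 and hyou1 are highest in Gb and lowest in Gc, and the single low point in Gb is the P4HB model at 2.38 CPM.

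Genes of ER-associated degradation, which returns misfolded proteins to the cytosol, had 7 of 28 tested models (25.0%) higher in EG and 5 (17.9%) lower, beside 23.7% and 21.7% of all tested models, with a median log2 fold change of 0.22. Both shares were near those of all models. Higher in EG was vcp, the ATPase that pulls substrates from the membrane, with 152, 145 and 108 CPM in EG and 45.5, 39.4 and 40.9 CPM in CG (log2 fold change 1.69 ± 0.17, edgeR, adjusted p = 0.000254). Edem1, a mannosidase-like factor (1.03), and 1 HERPUD2 model (0.94) were higher too, while the other 2 HERPUD2 models did not pass (-0.17 and 0.09). Lower in EG were both models of Man1b1, an ER mannosidase (-2.18 and -0.80), and SEL1L, the partner of the ubiquitin ligase HRD1 (-0.69). The number higher was 4 without G3 and 3 with library totals, and the number lower was 3 without Ga, Gc, G1 or G3 and 6 with library totals.

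Partners and relatives of the sensors showed 8 of 27 tested models (29.6%) higher and 5 (18.5%) lower in EG, beside 23.7% and 21.7% of all tested models, at a median of -0.06. Both shares were again near those of all models. FAM98B, a subunit of the tRNA ligase complex that in mammals joins the XBP1 exons, had a model with 24.0, 27.1 and 14.6 CPM in EG and 2.29, 3.09 and 3.81 CPM in CG (log2 fold change 2.84), while a second, scarcer FAM98B model was lower in EG (-1.45). Rtcb, the catalytic subunit of that ligase, did not pass (0.03). Wfs1, an ER membrane protein that restrains ATF6 in mammals, was higher at 71.2, 35.7 and 42.5 CPM in EG against 20.4, 15.0 and 16.9 CPM in CG (1.52), as was tmbim6 (Bax inhibitor 1), which binds IRE1 in mammals (0.91). One tapt1 model was lower in EG (-0.77) and the other did not pass (0.52). With library totals 5 were higher and 10 lower, and without G1, G2 or G3 the number lower was 3.

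The list around eIF2 alpha holds the factor, its kinases, its exchange factor eIF2B, the phosphatase and related factors such as EIF5 and denr. It had 13 of 28 tested models (46.4%) higher and 1 (3.57%) lower in EG, beside 23.7% and 21.7% of all tested models. Its median was 0.41 against -0.03. EIF2S1, encoding eIF2 alpha itself, had 89.7, 93.3 and 78.5 CPM in EG against 25.4, 33.4 and 22.2 CPM in CG (log2 fold change 1.69), and EIF2S2 (eIF2 beta) had 82.3, 83.7 and 67.1 CPM in EG against 21.7, 22.4 and 18.7 CPM in CG (1.89). Ppp1ca, a catalytic subunit of protein phosphatase 1, was higher as well (1.87), as were denr (2.16) and EIF1B (2.41). The models of the other catalytic subunits, ppp1cb (0.40 and 0.07) and ppp1cc (0.35 and 0.22), did not pass. Of the eIF2B subunits, Eif2b1 (0.96) and EIF2B5 (0.52) were higher. The subunits eif2b2 (-0.07), Eif2b3 (0.35) and Eif2b4 (0.15) did not pass. EIF1B, the 3 EIF5A models and EIF5B entered because a final letter was dropped from the name and are other translation factors. With exact names they leave the 28 tested models too, and 9 of the rest were higher and 1 lower. The share of 46.4% and the median of 0.41 include them. The single lower member was EIF2AK4, described above, and without Ga 2 were lower. With library totals 8 were higher and 4 lower, at a median of 0.08 against -0.37 for all models.

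The list of ATF4 and CHOP target genes, drawn from general knowledge of mammals, had 22 of 62 tested models (35.5%) higher and 8 (12.9%) lower in EG, beside 23.7% and 21.7% of all tested models, with a median log2 fold change of 0.38 against -0.03. Whether ATF4 or CHOP induces each of these genes was not tested. Many are aminoacyl-tRNA synthetases, amino acid transporters and stress regulators. NARS, the asparaginyl-tRNA synthetase, had 144, 145 and 105 CPM in EG and 20.1, 22.1 and 23.3 CPM in CG (2.59). Gdf15, a stress hormone, had 210, 40.1 and 57.6 CPM in Ga, Gb and Gc, against 19.8, 8.46 and 18.7 CPM in G1, G2 and G3 (2.71 ± 0.64, SE; edgeR, adjusted p = 0.0100), with Ga far above the rest. The glutamine transporter slc38a2 was higher in EG at 64.7, 37.4 and 110 CPM against 16.6, 12.7 and 10.1 CPM in CG (2.42). Not all genes of the list shared this direction. The cationic amino acid transporter SLC7A1 had 2.77, 3.97 and 4.12 CPM in EG against 30.5, 38.4 and 29.4 CPM in CG (-3.18), and WARS (-1.54) and a Nupr1 model of 16.1 to 24.7 CPM in EG and 47.2 to 50.6 CPM in CG (-1.23) were lower too. A second, more abundant Nupr1 model (261 to 322 CPM in EG and 277 to 337 CPM in CG; -0.12) and a second SLC7A1 model (1.08 to 11.3 CPM in EG and 1.85 to 5.58 CPM in CG; 0.71) overlapped between the groups and did not pass (edgeR, adjusted p = 0.554 and 0.446).

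A few further targets were picked after their values had been seen because they are widely read as markers of this pathway. Atf3 was higher in EG, with 7.81, 2.83 and 6.52 CPM in Ga, Gb and Gc, against 0.812, 0.558 and 0.336 CPM in G1, G2 and G3 (log2 fold change 3.32 ± 0.48, edgeR, adjusted p = 0.00117). ASNS, the asparagine synthetase, had 4.51, 3.65 and 7.17 CPM in EG and 9.79, 4.18 and 3.42 CPM in CG, which overlapped (-0.18, edgeR, adjusted p = 0.755). The more abundant chac1 model, a glutathione-degrading enzyme induced by CHOP in mammals, had 68.9, 29.9 and 70.9 CPM in EG and 68.6, 82.0 and 35.3 CPM in CG and also overlapped (-0.13, edgeR, adjusted p = 0.808). With library totals 17 of the list were higher and 10 lower, and the number lower was 5 without G1 and 4 without G2.

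Among genes for protein entry into the ER (signal recognition particle, translocon and oligosaccharide transfer), 13 of 40 tested models (32.5%) were higher and 2 (5.00%) lower in EG, beside 23.7% and 21.7% of all tested models, with a median of 0.36 against -0.03. SRP72, a signal recognition particle subunit, had 72.3, 81.3 and 52.3 CPM in EG and 24.4, 32.1 and 22.9 CPM in CG (1.37). One model of sec61al1, the translocon channel, had 93.0, 131 and 46.2 CPM in EG against 41.5, 39.5 and 34.8 CPM in CG (1.22), while a second sec61al1 model of like abundance did not pass (-0.08); Alg1, a mannosyltransferase of glycan assembly, was higher by 1.57. SEC62, an accessory subunit of the translocon, was lower (-0.86). The number higher was 8 without G1, G2 or G3 and 7 with library totals; the number lower was 3 without Gb, 1 without any other library and 3 with library totals.

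**Figure D4:**
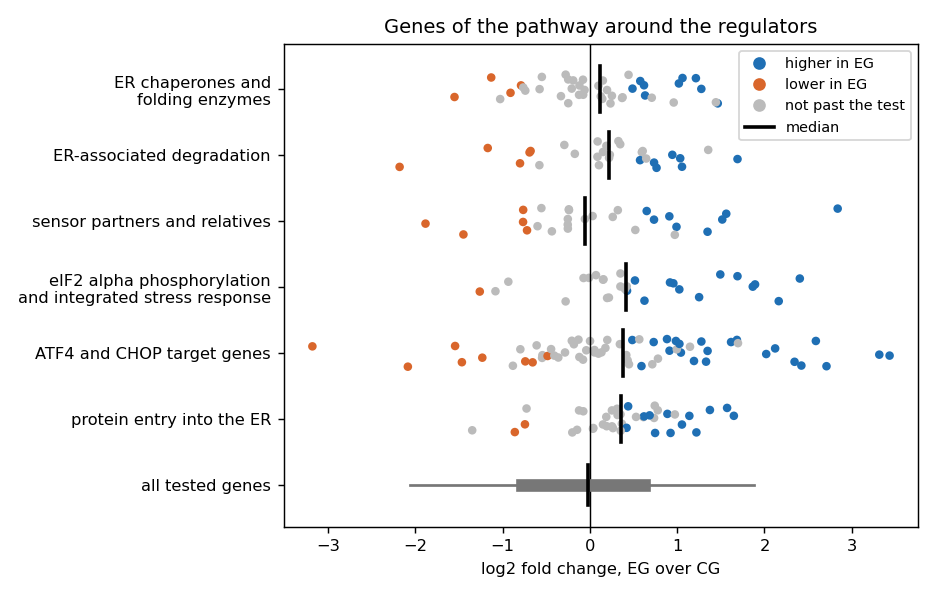
Log2 fold change of EG over CG (horizontal axis) for each tested model of 6 lists around the regulators, 1 point per model coloured by edgeR call, with black medians; the bottom row gives all 14357 tested models (thick bar the interquartile range, thin bar the 5th to 95th percentile). The medians of the eIF2 alpha list (0.41), the ATF4 and CHOP targets (0.38) and protein entry into the ER (0.36) lie to the right of the median of all (-0.03), and every list holds models on both sides of 0.

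The models most like each regulator were looked up by the Pearson correlation of log2 CPM over the 6 libraries, among 5683 named models with a mean of at least 10 CPM. The 6 points form 2 groups and share their scaling, so a high value can restate a like difference between the groups. Each set is also picked as the closest among 5683 models on 6 points, so high values can arise by selection alone. For Xbp1 the closest were BAHCC1, TRAF7 and Slc17a9 (r of 0.998, 0.998 and 0.997). For DDIT3 they were sh3rf1, Smg8 and RALA (0.998, 0.990 and 0.990), and for the longer PPP1R15B model AIRC, REQ and rpl36 (0.996, 0.996 and 0.995). For EIF2AK3 they were GNAI2, Sptbn1 and OGDHL (0.984, 0.984 and 0.980). ERN1 on scaffold 199 was closest to ADRBK2, CYR61 and ARFIP2 (0.993, 0.985 and 0.943), atf4 on scaffold 171 to SRSF2, DDX5 and ILK (0.968, 0.958 and 0.950), and Atf6b to Mrgbp, Csnk1g2 and ANGPTL4 (0.985, 0.978 and 0.974). For HSPA5 they were BTBD2, tmem168a and hyou1 (0.972, 0.964 and 0.963). Of these hyou1 is an ER chaperone, and neither it nor HSPA5 passed the test between the groups.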

How the data were processed

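The authors trimmed 125-base paired reads, mapped them to an unpublished *T. fasciatus* genome, and deposited counts per gene and FPKM for each of the 6 libraries, with a size-factor-scaled signal averaged per group; the submitters' processing notes name HISAT2 2.0.4, RSEM 1.2.3 and DESeq. The genome build is not given in the sources used here. The deposited group means, fold changes and p-values of the authors were not used. Of nonzero deposited FPKM values, 97.6% equalled count over length and library total within 0.1%.

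Counts were filtered (filterByExpr), scaled by TMM and tested with edgeR 4.0.16 (glmQLFit, glmQLFTest) in R 4.3.3 over all 14357 models, EG against CG, with Benjamini-Hochberg adjustment. The procedure was tested on simulated data in which few models changed, as many up as down. That simulation cannot bear on the choice of scaling. Alternatives used DESeq2 1.42.0 and limma 3.58.1. An exact permutation test of 3 against 3 libraries reaches no p below 0.1 and was not run.

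Members and gene lists were chosen with earlier results of these data known. List genes named are up to 3 highest and 3 lowest log2 fold changes with adjusted p under 0.05, 10 CPM or more on average and no overlap of the groups, besides others said to be chosen later or asked for by a member's role. Gene names come from the Swiss-Prot column. P-values set the difference between the groups against the spread among pools, an error term that edgeR moderates across models. The SE given with a log2 fold change was derived as its absolute value over the square root of edgeR's F statistic. The line of the table left out of the analysis was 1.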

Additional observations from a re-analysis of the deposited data

How the results depend on the processing

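Xbp1, Atf4 on scaffold 178 and the shorter PPP1R15B model kept their direction and call under all 15 alternatives. No paired analysis was possible because no replicate in EG is matched to a replicate in CG. The number of regulator models higher in EG was 6 and became 3 with library totals, upper quartile factors, limma on log2(FPKM + 1) and limma on log2(FPKM + 0.1); leaving out each library gave 3 to 6 higher and 0 to 1 lower. Over all tested models, 2024 were higher with library totals, 1962 higher and 4754 lower with limma on log2(FPKM + 1), and 1970 higher and 4700 lower with log2(FPKM + 0.1), against 3398 and 3113 with TMM. In the order library totals, upper quartile, log2(FPKM + 1) and log2(FPKM + 0.1), the log2 fold changes that lost their call were 0.088, 0.24, 0.083 and 0.088 for the longer PPP1R15B model, 0.52, 0.64, 0.36 and 0.43 for Ern1 on scaffold 250, and 0.28, 0.43, 0.28 and 0.29 for DDIT3. In the same order atf4 on scaffold 171 turned to -0.27, -0.13, -0.30 and -0.30. With library totals, log2(FPKM + 1) and log2(FPKM + 0.1), HSPA5 turned to -0.039, -0.37 and -0.39, Atf6 to -0.0091, -0.012 and -0.014, and Atf6b to -0.085, -0.093 and -0.10; with limma-voom HSPA5 was -0.066. These scalings lower the values of most models, as the medians of all models show.

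Leaving out each library in turn gave log2 fold changes of -0.78 to 0.63 for HSPA5, -0.072 to 0.25 for atf4 on scaffold 171, -0.13 to 0.091 for ERN1 on scaffold 199, -0.13 to 0.056 for ERN1 on scaffold 179, 0.52 to 1.02 for Ern1 on scaffold 250, -0.72 to -0.47 for EIF2AK3, 0.48 to 0.75 for DDIT3 and 0.38 to 0.48 for the longer PPP1R15B model. Exact gene names in the lists, an alternative added after seeing the data, changed the eIF2 alpha list from 13 to 9 higher models and the sensor partners from 8 to 7. Depth limits the 2 shorter PPP1R15B models, at 67 counts or fewer per library.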
